A study of Macaca mulatta with 24 samples.

Results

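The genes described here are 55 genes of mitosis, followed in whole blood of rhesus macaques before and in the first week after 4 Gy total body irradiation. They were chosen by name: every probe of the array that carries one of the 55 symbols was taken, and the brightest probe stood for its gene. Of the 55 genes, 50 had a probe, with 79 probes in all among the 43603 of the array, and 49 were bright enough to be tested. BUB1B, KIF4A, CENPA, NCAPH and MAD2L1 were not measured here under these names, and KIF18A, a kinesin motor, was well above background on only 1 of 24 arrays and was left out of the tests.

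Mitosis is the part of the cell cycle in which copied chromosomes are condensed, attached to a spindle of microtubules and pulled apart before the cell divides. Its genes are switched on late in the cycle, and a cell that does not divide carries little of their RNA, so they are commonly read as a sign that dividing cells are present. Most white blood cells in circulation do not divide, while their precursors in the marrow and activated lymphocytes do.

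The groups were the pre-irradiation blood of 7 animals, with a dose of 0 Gy, and blood of the same animals at day 3 (4 arrays, animals 1, 2, 4 and 7), day 5 (6 arrays, all but animal 5) and day 7 (7 arrays) after 4 Gy. Animals 1 to 4 were males and animals 5 to 7 were females, and no irradiated animal had a sham-treated partner among these arrays. The labels place the first blood at day 0 and give X-rays, whereas the methods of the study place it 3 days before exposure and give gamma rays of cobalt. All RNA came from unsorted whole blood from which globin transcripts had been depleted, so that fewer cells of a type and less RNA per cell cannot be told apart. Signals are given as the log2 of the scanner's processed signal after each array was scaled to the median array, and a difference of 1 on this scale is a doubling.

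Between 48.3 and 61.2% of probes on an array were well above background, and the array of animal 2 at day 7 was the dimmest, with a median signal of 16.7 against 30.9 to 106 on the others. The arrays lay on 6 slides scanned in 2 sessions. Session 1 held 6 pre-irradiation and 6 day 7 arrays, and session 2 held 1 pre-irradiation array, the 4 day 3 arrays, the 6 day 5 arrays and 1 day 7 array. Markers of blood cell types were present: the mean level of 6 T cell markers was 13.34 to 13.87 before irradiation, and that of 6 neutrophil markers 10.14 to 11.60.

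The level of the mitosis genes dipped at day 3 and stood above its starting point at day 7. Over the 48 genes measured on every array, the mean log2 signal was 7.95 ± 0.21 before irradiation (SD, n = 7), 7.22 ± 0.35 at day 3 (n = 4), 8.47 ± 1.02 at day 5 (n = 6) and 9.02 ± 0.76 at day 7 (n = 7). All 4 day 3 arrays, at 6.71, 7.40, 7.51 and 7.25 for animals 1, 2, 4 and 7, lay below the lowest pre-irradiation array, at 7.69. At day 7 the arrays ran from 8.15 to 10.50, and 6 of them lay above the highest pre-irradiation array, at 8.25. Of 49 genes, 37 were lower at day 3 and higher at day 7 than before irradiation, and for 45 the order of the changes was day 3, then day 5, then day 7. The 3 changes share the same pre-irradiation arrays, so they are given side by side and are not separate evidence.

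**Figure D1:**
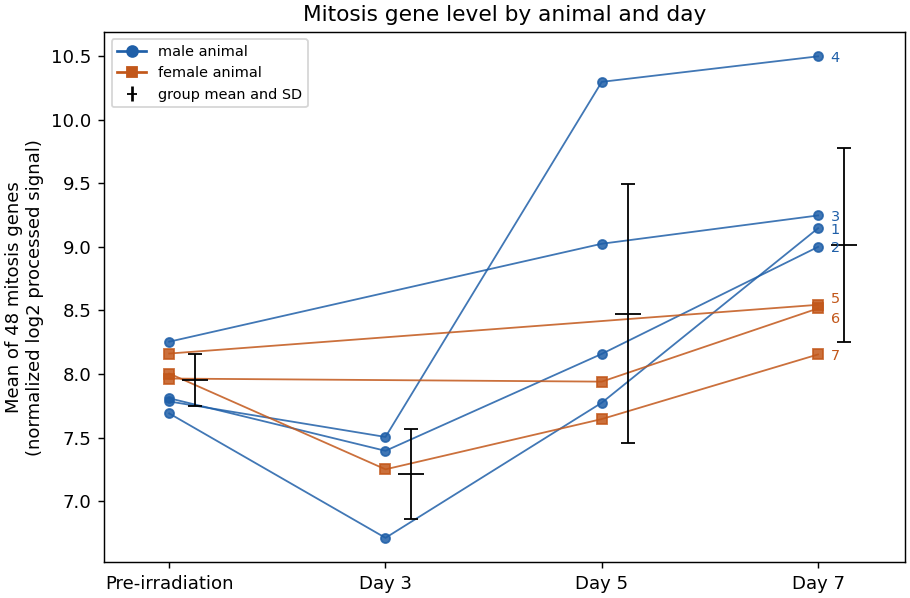
Mean normalized log2 processed signal of the 48 mitosis genes measured on every array, by group on the x axis, with 1 line per animal numbered at its right end, circles for males and squares for females, and bars for the group mean and SD. The 4 day 3 arrays lie below all pre-irradiation arrays, and animal 4 is the highest at days 5 and 7.

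Every day was set against the arrays from before irradiation, and the days against each other, by a two-sided limma test of the probes that were well above background on at least 4 arrays. A gene was called where its adjusted p (Benjamini-Hochberg, over these probes) was under 0.005. At day 7, 9 of 49 mitosis genes were called higher and none lower, beside 3.60% of all probes tested that were called higher and 7.28% that were called lower. The median change of the 49 genes was 1.03 on the log2 scale, against 0.02 over all probes tested. At day 3, 8 of 49 were called lower and none higher, beside 8.03% of all probes called lower and 5.43% called higher, with a median change of -0.71 against 0.02 over all probes. At day 5 none of the 49 was called, while 7.15% of all probes were called higher and 9.59% lower, and 12 of the 49 had an unadjusted limma p under 0.05, a lower share than the 45.5% of all probes. The median change at day 5 was 0.50, and 43 of the 49 differences were above 0. The filter let in 4 genes, CDC25C, PLK4, KIF15 and KIF20A, through arrays of days 5 and 7 alone, none of their arrays before irradiation or at day 3 being well above background. The calls of CDC25C and PLK4 at day 7 and of KIF20A at day 3 are therefore not read as a rise or a fall. Of the other 45 genes, 7 rose at day 7 (2.97% of the probes that were above background on a pre-irradiation array were called higher) and 7 fell at day 3 (8.63% called lower), with median changes of 1.01 and -0.71.

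Between the days, 3 genes were called higher at day 7 than at day 3 and none lower, beside 0.317% of all probes called higher and 0.947% called lower, and the median difference of the 49 genes was 1.88. All 3 were among the 45 genes above background on a pre-irradiation array, where 0.326% of such probes were called higher. No mitosis gene was called from day 3 to day 5, where 0.0184% of all probes were called in either direction, or from day 5 to day 7, where 0.00369% were. At an unadjusted limma p under 0.05, 29 of the 49 genes differed in the first of these (10.1% of all probes) and 2 in the second (20.8%), and with the animal as a block in limma 36 of the 49 had such a p in the second (31.9%), none of them called. The same 7 animals gave the arrays, and with the animal as a block in limma the day 3 count went from 8 to 0 (1.56% of all probes were called lower) and the count between days 3 and 7 from 3 to 0 (0% of all probes called higher). In the blocked fit 5 genes were called higher at day 7 (2.54% of all probes), PLK1, HMMR, ANLN and, again let in through later arrays alone, CDC25C and PLK4, and 1, PRC1, was called lower. With the normexp background correction in place of the scanner's own, limma called none of the 49 genes in any of the 6 comparisons. Leaving out animal 1, 2 or 3 lowered the day 7 count from 9 to 3, 4 and 4, leaving out animals 1 to 5 or 7 lowered the day 3 count from 8 to 3, 2, 2, 3, 5 and 1, and leaving out any animal lowered the count between days 3 and 7 to 0 or, without animal 2, to 1.

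A looser threshold was added after the data were seen. At a limma adjusted p under 0.05, 30 of 49 were higher at day 7 (13.2% of all probes), 22 of 49 were lower at day 3 (19.4%), 4 of 49 were higher at day 5 (17.4%), and 34 of 49 were higher at day 7 than at day 3 (7.61%). The share at day 5 lay below that of all probes. In the other direction, 1 of 49 was lower at day 7, 1 at day 5, 1 at day 7 against day 3 and 1 at day 7 against day 5, and none was higher at day 3. Over the 45 genes above background on a pre-irradiation array the 4 counts were 26, 21, 3 and 31. The share of all such probes was not counted at this threshold. Counted by arrays alone over the 48 genes, 11 had every day 7 array above every pre-irradiation array (2.59% of the probes measured on all arrays), 12 had every day 3 array below every pre-irradiation array (12.4%), and 27 had every day 7 array above every day 3 array (5.88%). Of the 44 of these genes that were above background on a pre-irradiation array, 9, 11 and 25 did, with no share of all such probes counted.

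**Figure D2:**
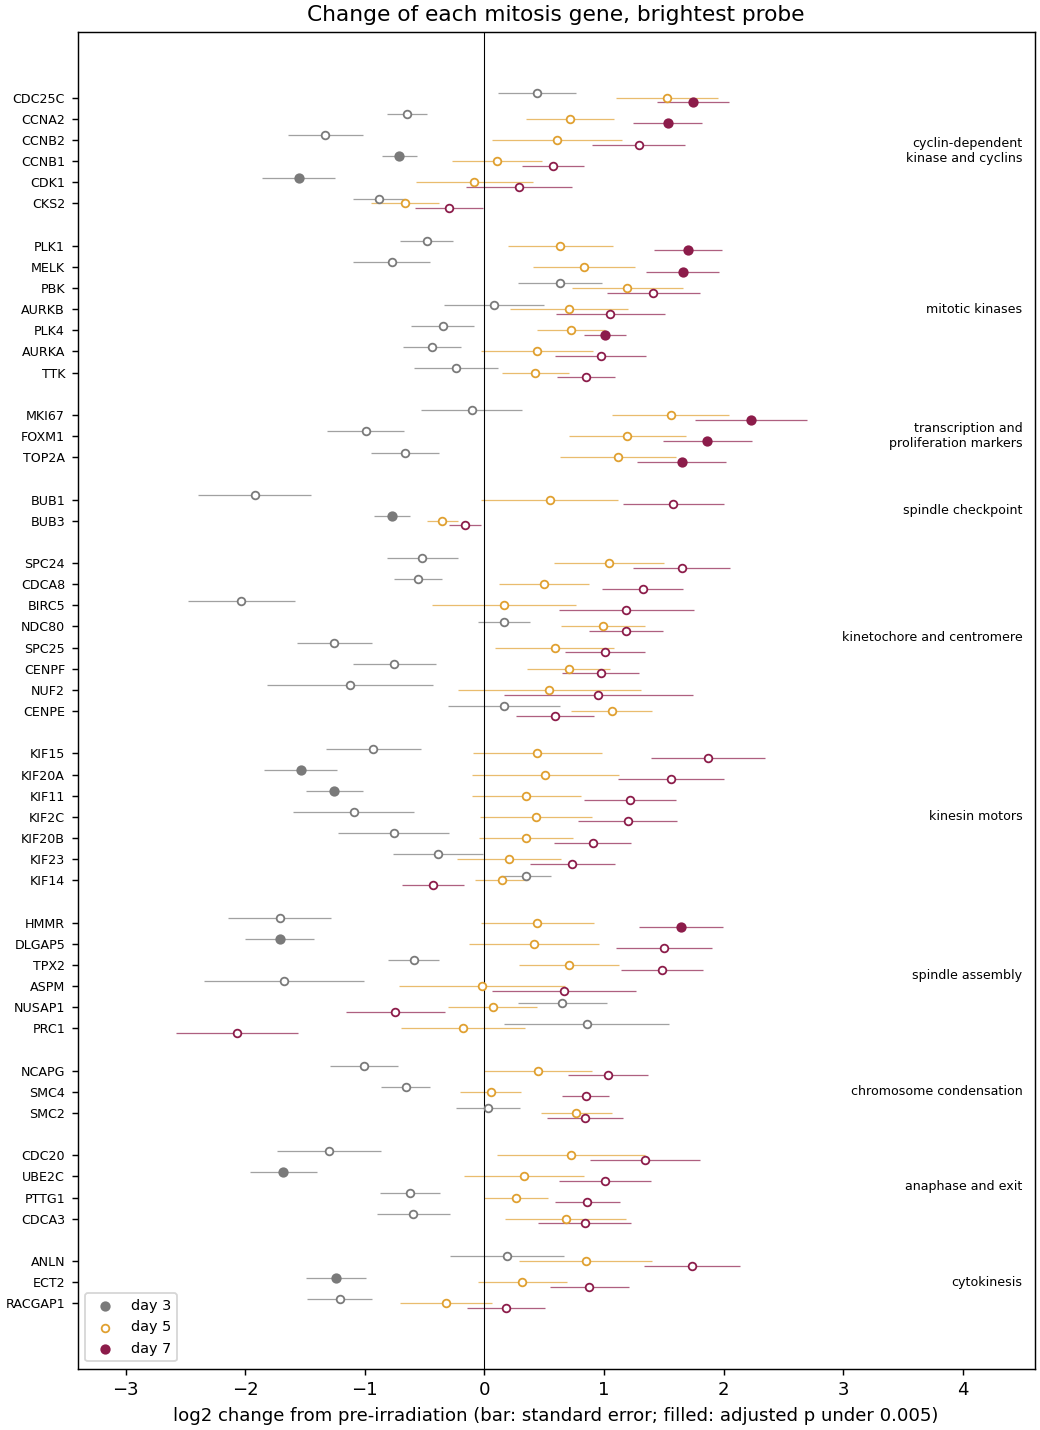
Log2 change from pre-irradiation at day 3 (grey), day 5 (yellow) and day 7 (dark red) for the brightest probe of each of the 49 genes tested, grouped by role, with bars for the standard error and filled points for an adjusted p under 0.005 in limma. The filled points are 8 at day 3, all below 0, and 9 at day 7, all above 0, among them those of KIF20A at day 3 and of CDC25C and PLK4 at day 7, which were not above background before irradiation.

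The 3 genes that are widely used to mark proliferation, or that drive the program, all rose at day 7. MKI67 encodes the Ki-67 protein, which coats chromosomes in dividing cells. Its lowest, median and highest log2 signals were 6.91, 7.81 and 8.75 before irradiation, 8.16, 9.25 and 11.77 at day 5, and 8.84, 9.96 and 12.21 at day 7, and the 4 day 3 arrays gave 6.76, 7.92, 9.0 and 7.60 for animals 1, 2, 4 and 7. Every day 7 array stood above every pre-irradiation array. The day 3 arrays, from 6.76 to 9.0, reached beyond the pre-irradiation range of 6.91 to 8.75 at both ends. The change at day 7 was 2.23 ± 0.47 (SE, adjusted p = 0.00275 in limma, a 4.69-fold difference), with adjusted p = 0.0115 when the animal was a block. Its 3 probes gave changes of 1.78 to 2.23 at day 7.

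FOXM1 is a transcription factor that switches on many late cell cycle genes. It gave 6.55, 7.12 and 7.44 (lowest, median and highest) before irradiation, 4.92, 6.33, 6.73 and 6.29 at day 3, 7.12, 7.70 and 10.65 at day 5, and 7.97, 8.73 and 10.71 at day 7. The groups before irradiation and at day 7 did not overlap, and the change was 1.86 ± 0.37 (adjusted p = 0.00204 in limma, 0.00588 with the block). TOP2A, the topoisomerase that untangles sister chromatids, gave 9.38, 9.76 and 10.25 before irradiation, 8.11, 9.31, 9.59 and 9.45 at day 3, 9.46, 10.36 and 13.18 at day 5, and 10.26, 11.08 and 13.42 at day 7. The lowest day 7 array only just cleared the highest array before irradiation, and the change was 1.65 ± 0.37 (adjusted p = 0.00457 in limma, 0.0124 with the block). Its dimmer probe gave less at day 7, at 0.79 (adjusted p = 0.0957 in limma, not called), and was called lower at day 3, with a change of -1.53 against -0.66 for the brightest.

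**Figure D3:**
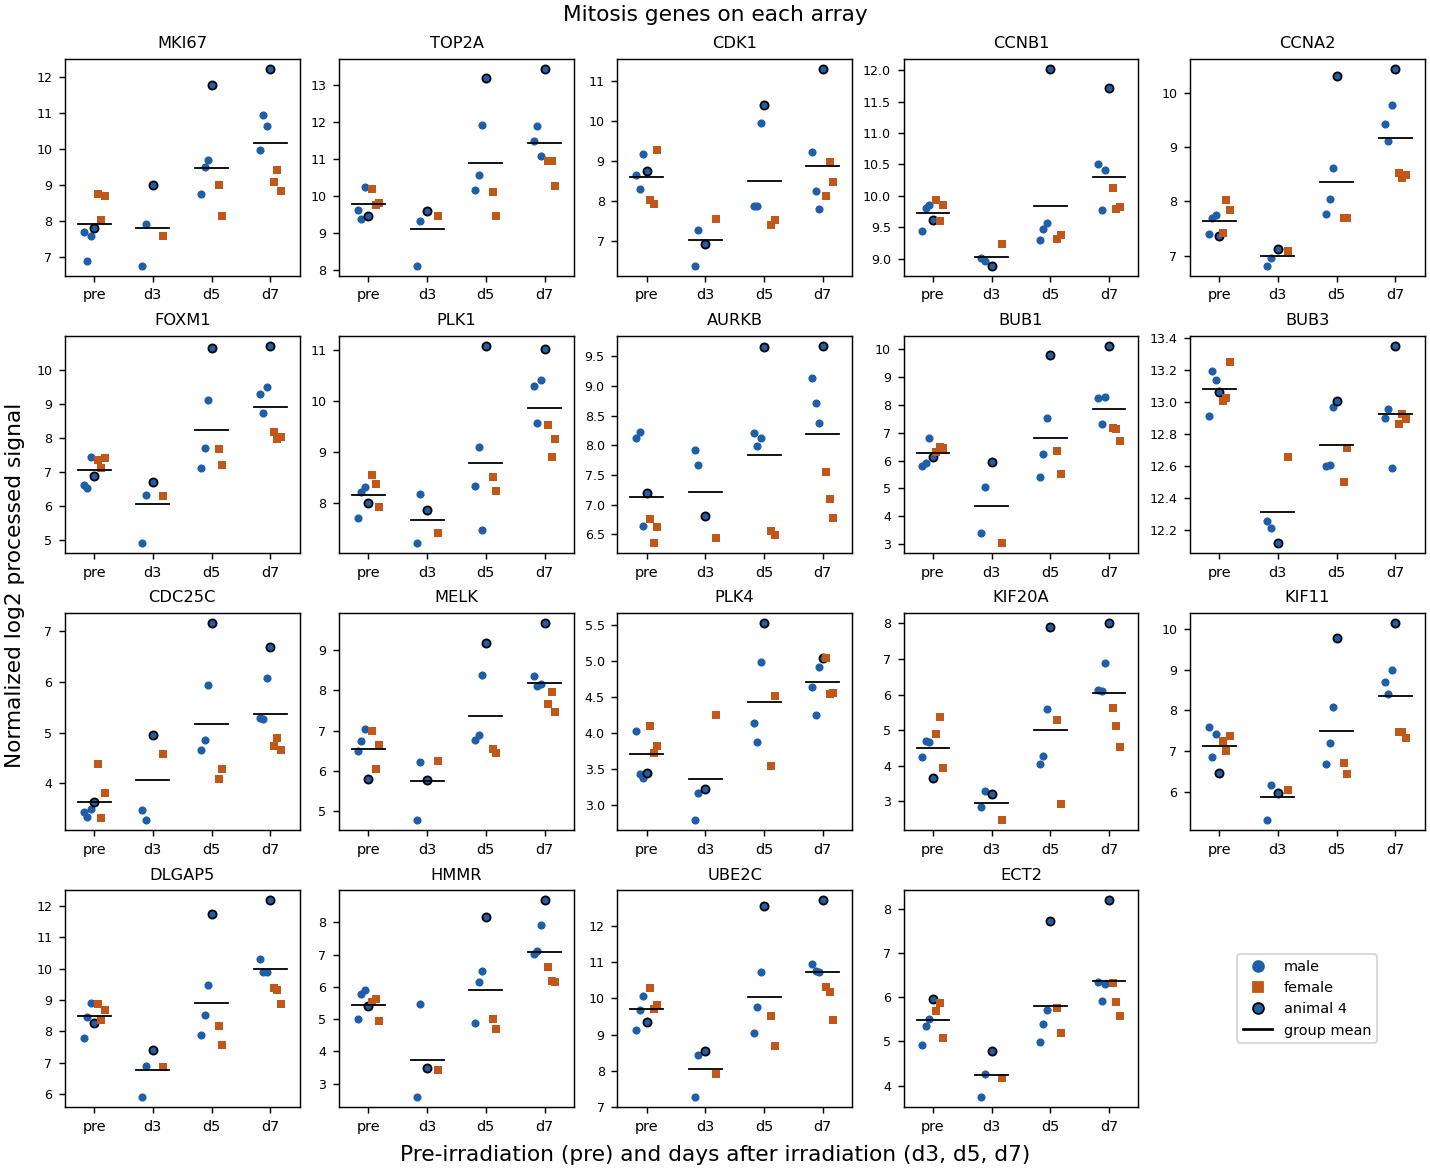
Normalized log2 processed signal of 19 mitosis genes on each array by group, with blue circles for males, orange squares for females, a black rim for animal 4 and a bar for the group mean. In most panels the day 3 points sit lowest and animal 4 sits highest at days 5 and 7.

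Among the cyclin-dependent kinase, its cyclins and their activators, 2 of 6 fell at day 3 and CCNA2 rose at day 7. CDK1 is the kinase that drives entry into mitosis. It gave 7.92, 8.65 and 9.28 before irradiation, 6.38, 7.27, 6.94 and 7.55 at day 3, 7.39, 7.88 and 10.40 at day 5, and 7.81, 8.48 and 11.30 at day 7. All day 3 arrays lay below all pre-irradiation arrays, whereas day 7 overlapped them almost throughout. CDK1 fell at day 3 by 1.55 on the log2 scale (SE 0.31, adjusted p = 0.00285 in limma, 0.00703 with the block), and its change at day 7 was 0.29 ± 0.44 (adjusted p = 0.662 in limma). A second, dimmer CDK1 probe gave 1.41 at day 7.

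CCNB1 encodes cyclin B1, the partner of CDK1 in mitosis. Its arrays gave 9.45, 9.81 and 9.94 before irradiation, 9.01, 8.96, 8.88 and 9.23 at day 3, 9.30, 9.42 and 12.02 at day 5, and 9.77, 10.13 and 11.71 at day 7. It fell at day 3 by 0.71 (SE 0.15, adjusted p = 0.00382 in limma, 0.0404 with the block), and 4 of the 7 day 7 arrays exceeded all pre-irradiation arrays. CCNA2, cyclin A2, which acts from DNA replication into early mitosis, gave 7.37, 7.70 and 8.02 before irradiation, 6.81, 6.96, 7.12 and 7.08 at day 3, 7.70, 7.90 and 10.32 at day 5, and 8.44, 9.12 and 10.45 at day 7. It was the one member of this role with no overlap at either end: every day 3 array lay below and every day 7 array above those before irradiation. Its rise at day 7 was 1.53 ± 0.29 (adjusted p = 0.00134 in limma, 0.0056 with the block), and its difference between days 3 and 7 was 2.18 ± 0.37 (adjusted p = 0.00499 in limma, 0.0106 with the block).

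CDC25C, the phosphatase that activates CDK1, was dim, well above background on no array before irradiation or at day 3, 2 at day 5 and 4 at day 7. It gave 3.32, 3.49 and 4.38 before irradiation, 3.48, 3.27, 4.96 and 4.57 at day 3, 4.08, 4.76 and 7.16 at day 5, and 4.66, 5.26 and 6.69 at day 7. It had an adjusted p of 0.000688 in limma at day 7, but was tested only because of its later arrays, so this is no test of a rise. Its level before irradiation is only bounded, and the day 7 level was at least 1.06-fold higher. Here and below such a bound sets the mean of the brighter group against the lowest signals that were well above background on the arrays of the dimmer one. The remaining members of this role were not called: CCNB2, cyclin B2, gave changes of -1.33 at day 3 and 1.29 at day 7, and CKS2, a small CDK-binding protein, -0.88 and -0.30.

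Of 7 mitotic kinases, PLK1 and MELK rose at day 7 and none fell at day 3. PLK1, which acts on centrosomes, kinetochores and the exit from mitosis, gave 7.70, 8.22 and 8.53 before irradiation, 7.21, 8.18, 7.87 and 7.41 at day 3, 7.47, 8.42 and 11.07 at day 5, and 8.90, 9.56 and 11.01 at day 7. The lowest day 7 array was above the highest one before irradiation, and the rise was 1.70 ± 0.29 (adjusted p = 0.000592 in limma), which also passed with the animal as a block. The array annotation places this PLK1 probe on chromosome 13, where the RefSeq table has the gene on 20, and a second PLK1 probe, above background on 5 of 24 arrays and none before irradiation or at day 3, was not called on any day. MELK, a kinase that is abundant in dividing cells, gave 5.80, 6.66 and 7.03 before irradiation, 4.78, 6.23, 5.78 and 6.25 at day 3, 6.44, 6.84 and 9.18 at day 5, and 7.45, 8.11 and 9.67 at day 7. It rose at day 7 by 1.66 ± 0.30 (adjusted p = 0.00113 in limma, 0.0073 with the block) and stood 2.43 ± 0.41 higher at day 7 than at day 3 (adjusted p = 0.00479 in limma, 0.0178 with the block). Both MELK probes were called at day 7.

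PLK4, which starts the copying of centrioles, was well above background on only 4 of 24 arrays, 2 at day 5 and 2 at day 7. It gave 3.37, 3.72 and 4.10 before irradiation, 2.79, 3.16, 3.22 and 4.25 at day 3, 3.54, 4.32 and 5.52 at day 5, and 4.25, 4.64 and 5.04 at day 7. Its adjusted p at day 7 (0.000673 in limma) is no test of a rise, since those 4 arrays alone brought it into the test, and no fold is given, because the day 7 mean did not exceed the lowest signals well above background on the pre-irradiation arrays. AURKB, the kinase of the chromosomal passenger complex, gave 6.35, 6.75 and 8.22 before irradiation, 7.93, 7.67, 6.82 and 6.44 at day 3, 6.49, 8.05 and 9.66 at day 5, and 6.78, 8.37 and 9.67 at day 7. Animals 1 and 2, at 8.12 and 8.22 before irradiation, were the highest there and again at day 3. The change at day 7 was 1.05 ± 0.45 (adjusted p = 0.0981 in limma). AURKA, TTK and PBK, which act on the spindle poles, the checkpoint and mitotic chromatin, changed by 0.97, 0.85 and 1.41 at day 7 and were not called.

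The spindle checkpoint holds chromosomes back until all are attached, and its measured members were BUB1 and BUB3. BUB1, a kinase at the kinetochore, gave 5.80, 6.31 and 6.81 before irradiation, 3.39, 5.04, 5.93 and 3.03 at day 3, 5.41, 6.30 and 9.80 at day 5, and 6.69, 7.32 and 10.12 at day 7. It was well above background on 1 of the 4 day 3 arrays and on all arrays of the other groups. Its changes were -1.92 ± 0.47 at day 3 (adjusted p = 0.00902 in limma) and 1.58 ± 0.42 at day 7 (adjusted p = 0.0124 in limma), neither of them called. BUB3, which carries BUB1 to the kinetochore, was much less variable, at 12.91, 13.06 and 13.25 before irradiation, 12.26, 12.21, 12.12 and 12.65 at day 3, 12.50, 12.66 and 13.01 at day 5, and 12.58, 12.90 and 13.35 at day 7. It fell at day 3 by 0.77 (SE 0.15, adjusted p = 0.00249 in limma, 0.0252 with the block). At day 7 it was -0.16 ± 0.13, and each of its 5 probes was below 0 at both days, from -0.77 to -0.55 at day 3 and from -0.39 to -0.16 at day 7. At day 7, 1 of 7 BUB3 arrays lay above those before irradiation and 4 below.

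Kinetochore and centromere genes encode the plate on each chromosome that binds microtubules. None of the 8 tested was called against pre-irradiation blood, with median changes of -0.65 at day 3 and 1.10 at day 7, and at day 7 all 8 were above 0. BIRC5, which encodes survivin, was well above background on none of the day 3 arrays and on 4 of 7 before irradiation, when its level was at least 1.83-fold higher (adjusted p = 0.00517 in limma, not called). Its other probe was above background on no array of either group. SPC24 and SPC25 of the NDC80 complex changed by 1.65 and 1.01 at day 7, CDCA8 by 1.32 (its probe is annotated on chromosome 19, where the RefSeq table has the gene on 1), NDC80 itself by 1.18, CENPF by 0.97, NUF2 by 0.95 and CENPE by 0.59. CENPE was the one whose change at day 5, 1.07, exceeded that at day 7.

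Of 7 kinesin motors tested, KIF11 fell at day 3 and none was called at day 7. KIF11, the motor that pushes the spindle poles apart, gave 6.47, 7.25 and 7.59 before irradiation, 5.31, 6.18, 5.98 and 6.05 at day 3, 6.44, 6.96 and 9.78 at day 5, and 7.32, 8.40 and 10.14 at day 7. Day 3 lay wholly below pre-irradiation, and KIF11 fell by 1.25 (SE 0.24, adjusted p = 0.00252 in limma, 0.0378 with the block). KIF20A, a motor of the late spindle, gave 3.65, 4.66 and 5.37 before irradiation, 2.85, 3.29, 3.21 and 2.47 at day 3, 2.93, 4.79 and 7.89 at day 5, and 4.54, 6.10 and 8.01 at day 7. It was not well above background on any array of the first 2 groups, so its adjusted p at day 3 (0.00314 in limma, 0.017 with the block) sets background against background, and no fold is given. At day 7, when 5 of 7 arrays were well above background, it was at least 1.67-fold higher than before irradiation. KIF15, a second motor of spindle pole separation that was not above background before irradiation, was at least 2.29-fold higher at day 7, and KIF2C, KIF20B and KIF23 differed by 1.20, 0.90 and 0.73. None of these was called, and for KIF20A and KIF15, which their later arrays alone brought into the test, the bounds are a description.

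Among 6 spindle assembly genes, DLGAP5 fell at day 3 and HMMR rose at day 7. DLGAP5, which stabilises microtubules near chromosomes, gave 7.79, 8.47 and 8.92 before irradiation, 5.90, 6.90, 7.40 and 6.87 at day 3, 7.57, 8.35 and 11.73 at day 5, and 8.88, 9.90 and 12.18 at day 7. It fell by 1.71 at day 3 (SE 0.29, adjusted p = 0.00127 in limma, 0.00829 with the block) and stood 3.21 ± 0.53 higher at day 7 than at day 3 (adjusted p = 0.00467 in limma, 0.00966 with the block). This 9.26-fold difference was the largest among the 3 genes called between those days. HMMR, a spindle pole protein, gave 4.96, 5.52 and 5.89 before irradiation, 2.58, 5.48, 3.48 and 3.43 at day 3, 4.69, 5.59 and 8.15 at day 5, and 6.15, 7.03 and 8.69 at day 7, and was well above background on 4, 1, 5 and 7 arrays of these groups. It rose at day 7 by 1.64 ± 0.35 (adjusted p = 0.00308 in limma), a call that the block kept. Neither of its other probes was called at day 7 (adjusted p = 0.0103 and 0.006 in limma). TPX2, which recruits AURKA to the spindle, changed by 1.48 at day 7 with no overlap of the groups, and ASPM, a spindle pole protein, by 0.67; neither was called.

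KIF14, a kinesin of cytokinesis, and NUSAP1, a protein that bundles spindle microtubules, were among 5 genes below 0 at day 7 in their brightest probes, with PRC1, BUB3 and CKS2, and had changes of -0.43 ± 0.26 and -0.75 ± 0.41 at day 7 (adjusted p = 0.235 and 0.196 in limma). The KIF14 probe had a mean log2 signal of 18.56 before irradiation, far above the 3.91 and 5.92 of the other KIF14 probes. Both of these brightest probes hold runs of 20 bases that also occur, on either strand, in probes of other gene names, and no other probe of the 50 genes does. The KIF14 probe shares such runs with 37 other probes and the NUSAP1 probe with 99. What these 2 probes bind was not tested.

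The other probes of these genes gave different values. The dimmest KIF14 probe, well above background on no array before irradiation and 6 at day 7, was at least 1.63-fold higher at day 7, and its adjusted p (0.00232 in limma) is no test of a rise, since only arrays of days 5 and 7 brought it into the test. The middle one, above background on no day 3 array, was at least 2.22-fold higher before irradiation than at day 3 (adjusted p = 0.000924 in limma) and at -0.47 at day 7, and the second NUSAP1 probe changed by -0.73 at day 3 and 1.26 at day 7. With the brightest unshared probe in place of the shared one, 9 genes were called at day 3 and 9 at day 7, and the median changes were -0.75 and 1.05. Over the 19 genes with more than 1 tested probe, all probes had the same sign of change at day 7 in 17 and at day 3 in 13. PRC1 bundles microtubules at the centre of the dividing cell, and its brightest probe was at 11.01 ± 1.21 before irradiation (n = 5) and 8.94 ± 0.68 at day 7 (n = 6), a difference of -2.07 (adjusted p = 0.0108 in limma) that was called with the block (-2.23 ± 0.34, adjusted p = 0.00434 in limma). Outlier spots took 2 pre-irradiation arrays and 1 day 7 array out of these fits. Its second probe changed by -0.48 at day 7 and was called lower at day 3, when no array was above background and the pre-irradiation level was at least 1.84-fold higher (adjusted p = 0.00252 in limma).

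**Figure D4:**
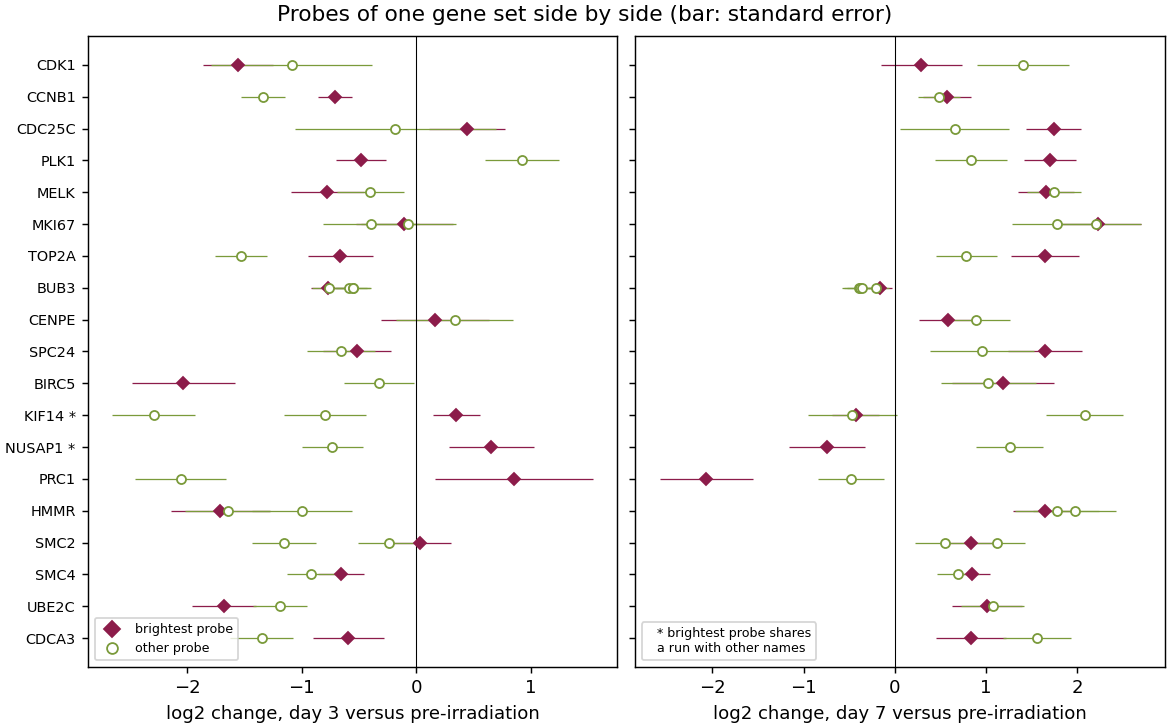
Log2 change at day 3 (left) and day 7 (right) of each tested probe of the 19 genes with more than 1, with dark red diamonds for the brightest probe, open green circles for the others, an asterisk for a shared run and bars for the standard error. At day 7 the probes of KIF14 and of NUSAP1 lie on both sides of 0.

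Genes of chromosome condensation, of anaphase and of the final cut gave 2 more calls, both at day 3. UBE2C, the enzyme that tags cyclins for destruction with the anaphase-promoting complex, gave 9.12, 9.72 and 10.28 before irradiation, 7.26, 8.42, 8.55 and 7.91 at day 3, 8.67, 9.63 and 12.56 at day 5, and 9.39, 10.72 and 12.72 at day 7. It fell by 1.68 at day 3 (SE 0.28, adjusted p = 0.0012 in limma, 0.0108 with the block), the lowest p among the brightest probes of these genes at that day. ECT2, which switches on the contractile ring, gave 4.92, 5.51 and 5.95 before irradiation, 3.74, 4.26, 4.79 and 4.17 at day 3, 4.99, 5.55 and 7.73 at day 5, and 5.57, 6.29 and 8.19 at day 7. It was well above background on no day 3 array, and its level before irradiation was at least 1.63-fold higher than at day 3 (adjusted p = 0.00308 in limma, 0.00997 with the block). CDC20 and PTTG1, the activator of the anaphase-promoting complex and securin, changed by 1.34 and 0.86 at day 7, and CDCA3 by 0.84. The condensin genes NCAPG, SMC4 and SMC2 changed by 1.03, 0.85 and 0.84. ANLN, a scaffold of the contractile ring, changed by 1.74 (adjusted p = 0.00533 in limma) and was called with the block (adjusted p = 0.0042), and RACGAP1, a regulator of the midzone, was just outside the threshold at day 3 (-1.21, adjusted p = 0.00528 in limma) and was at 0.18 at day 7.

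The mean level of the 48 genes spread more widely between animals at days 5 and 7 than before irradiation, with animal 4 the highest on both days. Against its own pre-irradiation blood, the mean of the 48 genes had changed at day 5 by 0.08, 0.35, 0.77 and 2.51 in males 1 to 4 and by -0.02 and -0.36 in females 6 and 7. Animal 4 had the highest level of 45 of the 48 genes among the day 5 arrays and of 44 among the day 7 arrays, while at day 3 it was still below its own start, by 0.28. The median change of the 49 genes at day 5 was 0.06 without animal 4, so the day 5 difference rested on that animal. At day 7 the median was 0.78 without animal 4, and 8 genes were called.

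At day 7 the mean change was 1.46, 1.19, 0.99 and 2.71 in males 1 to 4 and 0.38, 0.55 and 0.15 in females 5 to 7, so that every male lay above every female. On the slides that carried both sexes at both times the values were 1.46 for male 1 and 0.55 for female 6, and 2.71 for male 4 and 0.15 for female 7, an order that the preceding sentence fixes, so it bears on no effect of the slide. In 21 of the 48 genes every male's change exceeded every female's (6.09% of the probes measured on all arrays), among them MKI67, whose mean change was 3.43 in males and 0.62 in females, FOXM1 (2.69 and 0.76) and BIRC5 (2.59 and -0.69). The means were closer for SMC4 (0.98 and 0.67) and CENPE (0.54 and 0.65), and KIF20B had the lower mean in males (0.56 and 1.36). The test of the difference itself, a sex by day interaction in limma added after seeing the data, called none of the 49 genes and none of the 27133 probes at an adjusted p under 0.05, and 22 of the 49 had an unadjusted p under 0.05, beside 8.69% of all probes. With the animal as a block it again called none, 24 of the 49 had an unadjusted p under 0.05 beside 11.1% of all probes, and the lowest adjusted p among the genes was 0.36. In 23 of the 48 genes the day 7 level exceeded the animal's own start in all 7 animals (10.3% of the probes measured on all arrays). Over the 44 genes above background on a pre-irradiation array, these counts of 21 and 23 were 18 and 20, with no share of all such probes counted.

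**Figure D5:**
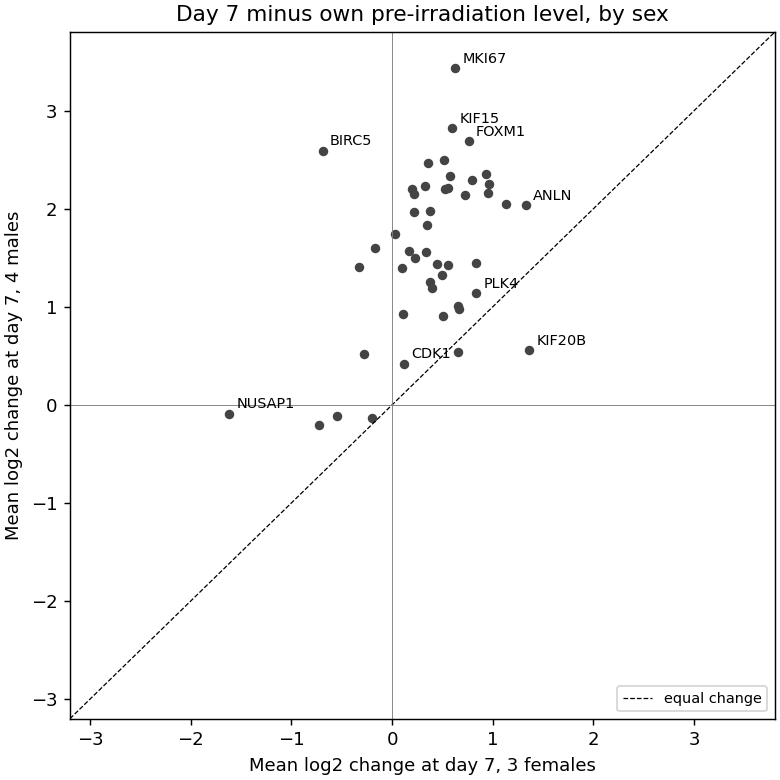
Mean log2 change at day 7 from the animal's own pre-irradiation level in 3 females (x axis) and 4 males (y axis), 1 point for each of the 48 mitosis genes measured on every array, with a dashed line of equal change. Most points lie above the line, and KIF20B is below it.

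Other measures are set beside these levels, some moving with them and some not, and their part in them was not tested. At day 7 the mean level of 4 stem and progenitor markers was 7.66 to 8.44 in males and 8.62 to 8.88 in females, the only one of 11 marker lists whose sexes did not overlap, and the defining markers CD34, PROM1 and HLF were too dim to be tested. The median signal of the arrays overlapped, at 16.7 to 78.5 in males and 57.4 to 94.4 in females. Over the groups, the 7 tested B cell markers were at 10.72 to 11.09 before irradiation, 6.69 to 8.18 at day 3 and 6.91 to 7.78 at day 7, all 7 called lower at each day, and 7 of 8 erythroid markers were called lower at day 7 (14.32 to 15.74 before irradiation, 8.45 to 13.32 at day 7). T cell markers were at 12.23 to 13.43 at day 3 and 13.23 to 13.89 at day 7, with 1 and 0 of 6 called lower. Plasma cell markers, which come from dividing plasmablasts as well, were at 10.20 to 11.17 before irradiation, 9.05 to 10.05 at day 3 and 8.81 to 10.87 at day 7, with 3 of 7 called lower at day 3 and none at day 7. Neutrophil precursor markers were at 7.18 to 8.78 before irradiation and 6.16 to 8.04 at day 7, and 2 of 6 were called lower at day 7. Erythroid progenitor markers were at 9.41 to 10.79 before irradiation and 6.95 to 9.04 at day 7, and 4 of 7 were called lower. No marker of neutrophil precursors, erythroid progenitors or stem and progenitor cells was called higher at day 7. Stem and progenitor markers averaged 9.43 before irradiation, 9.76 at day 3 and 8.32 at day 7. From day 3 to day 7, 2 of 4 were called lower. Cytotoxic and NK markers averaged 14.50 before irradiation, 14.95 at day 3 and 14.54 at day 7, with none of 6 called. Neutrophil markers averaged 10.99, 11.74 and 11.79, with 1 of 6 called higher at day 3 and none at day 7. Monocyte markers were at 12.43 to 13.10 before irradiation and 13.51 to 14.21 at day 3, with no overlap, and 2 of 7 were called higher on each of the 3 days. Platelet markers moved at the time of the dip, with 7 of 7 called higher at day 3 (8.50 to 9.91 before irradiation, 11.78 to 12.68 at day 3) and none at day 7.

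The day 7 comparison was balanced over the slides, and the median change of the 49 genes was 1.05, 1.05 and 1.48 within the slides of animals 1 and 6, 2 and 3, and 4 and 7. On the slide of animal 5, which held its arrays of both times, the median change over the 48 genes was 0.43. The day 3 arrays were all scanned in session 2, where 1 pre-irradiation array, of animal 5, was scanned too. Within that session the median change at day 3 was -0.94, and with the slide as a block it was -0.33. No mitosis gene was called at day 3 with the session or the slide as a block. The 6 day 5 arrays were in session 2 as well, while 6 pre-irradiation and 6 day 7 arrays were in session 1. Comparisons of days 3 and 5 with pre-irradiation or day 7 blood thus set session 2 against session 1, but for the arrays of animal 5. Day and scan session therefore cannot be told apart in them.

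A second list of 92 genes with roles in mitosis, none of them among the 55, had 79 genes with a probe and 76 tested. At day 3, 7 of 76 were called lower (8.03% of all probes) and 1 higher (5.43%), with a median change of -0.33. The share called lower lay near that of all probes. At day 7, 6 were called higher (3.60% of all probes) and 1 lower (7.28%), with a median of 0.46. These counts fell without single animals, and what part the smaller number of arrays had in it was not tested. The 8 calls at day 3 became 4, 3 and 5 without animals 1, 4 and 7. The 7 at day 7 became 0, 0, 1, 4, 4 and 2 without animals 1 to 5 and 7. With the animal as a block in limma 1 gene was called at day 3 and 2 at day 7, and with normexp none on either day. NEK2, a centrosome kinase, CEP55, which acts in the final cut, and SGO1, which protects centromere cohesion, were called lower at day 3, where none of them was well above background on any array. Against those day 3 levels the pre-irradiation level was at least 2.63-fold higher for NEK2 and at least 1.13-fold for CEP55, while SGO1 was also not above background before irradiation, so that its call is not read as a fall and it has no fold. At day 7 the largest changes called were those of CIT, the citron kinase of cytokinesis (2.12), CEP55 (1.90) and PKMYT1, an inhibitory kinase of CDK1 (1.50). CEP55 and NEK2 stood at least 4.21-fold and 4.65-fold higher at day 7 than at day 3. They were the 2 called between those days (0.317% of all probes called higher). That count became 0 without animal 1 or 4 and with the animal as a block, and 1 without animal 2, 3 or 7. TACC3, a spindle protein, was the 1 called at day 5 (0.75), where 7.15% of all probes were called higher. At that day 0 were called without animal 1, 2, 3, 6 or 7 and 2 without animal 4 or 5. The 1 gene that rose at day 3 was MAD1L1 (1.35) and the 1 that fell at day 7 was CDC26 (-0.80), both named after their values were seen.

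The factors that control these genes are bound together in complexes that share MuvB subunits. The DREAM complex holds the genes silent in resting cells, and the MYBL2 complex activates them. Of 10 such regulators 9 were tested. MYBL2 was the 1 of 9 called lower at day 3 (-1.21, adjusted p = 0.00243 in limma), when 8.03% of all probes were. It was at 0.78 at day 7 (adjusted p = 0.15 in limma). E2F4, a repressor subunit, was the 1 of 9 called lower at day 5 (-0.72, adjusted p = 0.00319 in limma), when 9.59% of all probes were. Both counts lie near the share of all probes, and the arrays of both days were all scanned in session 2. LIN9, a MuvB subunit, was at -1.22 at day 3, not called. In limma none of the 9 was called at day 7, when 3 had an unadjusted p under 0.05 (39.5% of all probes did), RBL1 at 0.72, TFDP1 at 0.69 and E2F4 at -0.56.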

How the data were processed

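RNA of 24 whole blood samples was hybridised to one-colour Agilent 4x44K arrays, and the deposited intensity values are background-subtracted, detrended processed signals that the authors made with Agilent Feature Extraction (10.7 per the submitters' processing notes, 12.0.2.2 per the file headers, which give the build rheMac2; the labels name a rhesus array and the methods a human one). The authors' log2 table, which holds these signals scaled to the median array, served as an alternative. Groups and animal numbers came from the labels. Here control and outlier spots were removed, spots of a probe averaged, log2 processed signals scaled to the median array (shifts -0.87 to 2.03) and each probe that 4 or more of the 24 arrays showed well above background tested with limma 3.58.1 in R 4.3.3, without pairing (the methods do not say whether arrays were paired), at a Benjamini-Hochberg adjusted p under 0.005. Tables and plots used Python 3.11.15, numpy 2.4.6, pandas 2.3.3 and matplotlib 3.10.9.

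The members, lists and tests were chosen with earlier results of these data known. Values per array are given for 10 genes chosen by name and, in each role, for up to 3 genes called in any of the 6 comparisons, by size of change. Of the other mitosis genes the 3 largest called are named, with exceptions stated. Same-numbered arrays are of the same animal, and their deviations from the group means correlated with r of 0.13 to 0.65 in all pairs. In limma on simulated data for 27133 probes, 58% of log2 changes of 1.5 and 91% of those of 3 were recovered for day 7 against pre-irradiation, and 36% and 84% for day 3. Alternatives were the background correction, scaling, filter, probe rule, blocks for animal, slide and session, one fit of all groups, the authors' table, each animal left out, a looser threshold and only genes above background before irradiation. The number of arrays limits the precision. Probe sequences are not reported here.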

Additional observations from a re-analysis of the deposited data

Results flagged for a closer look

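Of 80 groups of arrays tested over the 19 genes shown by array and the mean over all genes, 8 held an array whose gap to its nearest neighbour was large for the range of the group, and chance flags about 1 in 20. All 8 were arrays of animal 4. At day 5 its log2 signal was 12.02 for CCNB1 (the next array was at 9.56), 10.32 for CCNA2 (8.61) and 7.73 for ECT2 (5.75). At day 7 it was 11.30 for CDK1 (9.22), 11.71 for CCNB1 (10.51), 9.67 for MELK (8.35), 12.18 for DLGAP5 (10.30) and 8.19 for ECT2 (6.35). The cause was not tested. On the same arrays animal 4 had plasma cell markers at 10.41 and 10.87, the highest of each group, and monocyte markers at 13.23 and 12.79 and neutrophil precursor markers at 6.16 on both days, the lowest of each group. At day 7 it also had the highest T cell (13.89), B cell (7.78), erythroid (13.32), erythroid progenitor (9.04) and platelet (10.54) markers and the lowest neutrophil markers (11.04). At day 5 its B cell (6.42) and stem and progenitor (8.51) markers were the lowest, and its erythroid (9.38) and erythroid progenitor (7.74) markers lay within the range of the others.

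A change at day 7 that differed from that at day 3 was flagged for CCNA2 (2.18 on the log2 scale), MELK (2.43) and DLGAP5 (3.21). The pre-irradiation level cancels in this difference. These are therefore the same 3 limma calls between days 3 and 7 given above (0.317% of all probes called higher), not further ones. None of these 3 was called when the animal was a block.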

How the results depend on the processing

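The median change of the 49 genes kept its sign in all 6 comparisons under each alternative that was run. It moved by more than the spread at day 3, to -0.23 with normexp and -0.33 with the slide as a block, and between days 3 and 7, to 0.80 with normexp. The counts of called genes were less stable, and the cause was not tested. With normexp 0 genes were called at day 3, at day 7 and between them. The day 3 count of 8 became 0 with the replicate block, the session block, the slide block, within session 2 and within slide 6, 1 with all groups in one fit, 5 in the authors' table and 22 at an adjusted p under 0.05. The day 7 count of 9 became 5 with the slide block, 0 within each of slides 1, 2 and 3, and 31 at the looser threshold. The count of 3 between days 3 and 7 became 0 with no filter, the replicate block, either scan block, within session 2 and within slide 6, 5 with the mean of the probes, 6 with quantile normalization, 7 with the filter of 12 arrays, 22 with all groups in one fit and 35 at the looser threshold. At day 5 the count of 0 became 1 with any probe of a gene and 5 at the looser threshold, where 1 gene was also called between days 5 and 7. Without one animal the counts ran from 1 to 6 at day 3, from 3 to 9 at day 7 and from 0 to 1 between them. Of the 20 called results of named genes, normexp ended 20 and the replicate block, which pairs arrays of the same animal, ended 16, with no change of direction. The 4 it kept were those of PLK1, HMMR, CDC25C and PLK4 at day 7, and CDC25C and PLK4, like KIF20A at day 3 among the 20, were tested only through later arrays. With the block the calls at day 7 were 5 higher and 1 lower in place of 9 and 0, and those at day 5, between days 3 and 5 and between days 5 and 7 stayed at 0, with 13, 32 and 36 genes at an unadjusted limma p under 0.05 in place of 12, 29 and 2. Counting only the 45 genes above background on a pre-irradiation array, a choice made after seeing the data, gave 7 at day 3, 7 at day 7 and 3 between them. Within a slide or a session few arrays remain. Signals near background limit CDC25C, PLK4, KIF15, KIF20A, ECT2 and BIRC5, among others, to bounds or to no fold in some comparisons.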
